A study of Mus musculus with 9 samples.

Results

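A set of 36 genes of ribosome biogenesis was followed in mouse liver. The rule that picks them is a list of gene symbols, drawn up with earlier results of these data known, and each symbol matched 1 row of the 28517 genes of the deposited expression table. They comprise 3 box C/D core proteins, 5 H/ACA core proteins and their chaperone, 3 subunits of RNA polymerase I, 2 abundant nucleolar proteins, 2 proteins linked to rRNA transcription, 11 factors of the small subunit processome and 40S assembly and 10 factors of 60S assembly. The label was checked against annotation: 33 of the 36 carry the Gene Ontology term nucleolus, which 2.68% of the table carries, 13 belong to the KEGG ribosome biogenesis pathway and 3 to the KEGG RNA polymerase pathway.

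Ribosomes are built in the nucleolus, where RNA polymerase I copies the ribosomal RNA (rRNA) genes and a large set of proteins cut, modify, fold and assemble the transcript. Box C/D and box H/ACA ribonucleoproteins, each guided by a small nucleolar RNA (snoRNA), methylate or pseudouridylate the rRNA, the small subunit processome releases the 40S precursor, and a second set of factors matures the 60S subunit. In growing cells the genes of this machinery are classical targets of the transcription factor MYC, and in liver they are known to rise when hepatocytes enter the cell cycle after tissue loss.

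The db/db genotype, a loss of leptin receptor signalling that leads to obesity and diabetes, was shared by all groups, the controls too, so no lean group enters the comparison. Per the labels the groups were a vehicle group given PBS, a group given FGF19WT and a group given FGF19ΔKLB, each for 12 weeks and each with 3 libraries. FGF19 is a gut hormone that acts on hepatocytes through FGFR4 and the co-receptor β-klotho. FGF19ΔKLB is a variant of it, coded HBS in the column headers, whose sequence change is not given in the labels. Nothing in them states that replicates are separate animals, and p-values below then measure only the spread between these samples, which may be technical.

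The proximal promoters of the members were searched for short motifs, none of which most of them hold. RefSeq promoter windows on GRCm38.p6, 250 bases before to 50 bases after the start, were matched by symbol for 31 of the 36 genes in 34 windows. The E-box CACGTG, the core letters bound by MYC and by other basic helix-loop-helix factors and the same on both strands, was found in 6 of the 34 member windows (17.6%) and in 7.15% of all 32851 windows. Those 6 were the windows of Mybbp1a, Nop2, Pes1, Utp20, Utp4 and Wdr43. The ETS motif CCGGAAG, searched on both strands, was found in 23.5% of member windows and 8.86% of all windows, and the NRF1 motif GCATGCGC in 2.94% and 2.71%. The TATA motif TATAAA was found on either strand in 5.88% of member windows against 13.6% of all windows. Member windows held a median of 20.0 CG pairs against 7.0, at a median GC content of 57.7% against 52.7%. The letters of the E-box, ETS and NRF1 motifs include a CG pair. All windows were not matched to the member windows for CG pairs, and the part of CG pairs in these shares was not tested. None of these motifs lies within another, and a match describes the sequence only. Npm1, Fbl, Rrs1, Bop1 and Rrp12 had no entry. Shown are the E-box members with the highest mean level per length, on the plus strand, with the E-box in capitals and its position counted from the RefSeq start as +1. The Pes1 stretch is chr11:3963875-3964004 with the E-box at +3, the Mybbp1a stretch chr11:72441347-72441376 with the E-box at +41, the Nop2 stretch chr6:125131783-125131912 with the E-box at -60, and the Utp4 stretch chr8:106893540-106893669 with the E-box at +16.
Pes1: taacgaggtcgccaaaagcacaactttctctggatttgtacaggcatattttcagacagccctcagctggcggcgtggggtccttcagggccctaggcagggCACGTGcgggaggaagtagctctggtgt
Mybbp1a: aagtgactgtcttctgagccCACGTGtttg
Nop2: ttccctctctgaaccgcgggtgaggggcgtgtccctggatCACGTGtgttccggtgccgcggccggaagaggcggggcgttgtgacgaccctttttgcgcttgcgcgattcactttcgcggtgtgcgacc
Utp4: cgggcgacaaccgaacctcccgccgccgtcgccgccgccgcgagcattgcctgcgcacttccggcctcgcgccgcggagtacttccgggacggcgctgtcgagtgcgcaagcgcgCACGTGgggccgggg
The E-box lies within 60 bases of the start in all 4 genes. CpG-rich promoters with few TATA boxes are usual for housekeeping genes.

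Library totals ran from 65.1 to 73.3 M counts, and every member had at least 150 counts in every library. FGF19WT libraries 2 and 3 stood apart from the other 7 libraries on the first principal component, which held 48.9% of the variance. The summed level of 6 Kupffer cell markers was 20.8 and 6.76 CPM (a count relative to its library's total, scaled with TMM factors) in them and 138 to 212 in the other 7, while that of 8 proliferation markers was 118 and 151 against 34.2 to 48.8. The pericentral enzyme Glul was at 14800 and 12700 CPM in them and at 185 to 1000 in the others. Values for FGF19WT are therefore followed by the value without these 2 libraries where a fit gives one, which leaves FGF19WT 1 alone in its group. Hepatocyte markers were high in every library, the defining marker Alb taking 8.6% to 13.5% of counts in vehicle, 16.4%, 9.14% and 8.67% in FGF19WT 1 to 3, and 16.3% to 21.1% with FGF19ΔKLB. In FGF19WT 2 and 3 Fgb (1160 and 964 CPM against 3920 to 10200 in the other 7) and Serpina1c (1170 and 996 against 3590 to 6370) were lower. Ttr was lower there too (3760 and 4100 against 5110 to 8630), while Alb, Apoa1 and Hnf4a overlapped with the other libraries in CPM. In whole tissue, fewer cells of a type and less RNA per cell cannot be told apart.

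The members were expressed in every library and covered a wide range of levels. Measured per length as FPKM in vehicle, they ran over a 111-fold range around a median of 3.61, with 5 at or above 10 FPKM and 7 under 2. The highest was Npm1, nucleophosmin, a histone and ribosomal protein chaperone, at 40.1 ± 4.6 FPKM (SD, n = 3). It was followed by the small H/ACA protein Nop10 at 34.4 ± 3.6, the H/ACA protein Nhp2 at 17.5 ± 0.615, nucleolin (Ncl) at 16.5 ± 0.926 and Pes1, of the 60S PeBoW complex, at 12.5 ± 0.654 FPKM. The lowest was Rrp1b at 0.361 ± 0.124 FPKM, below Wdr12 at 1.1 ± 0.0655. Of the 35 neighbouring pairs in this order, 8 had vehicle ranges that did not overlap, and the other neighbours did not differ beyond their spread. Within the H/ACA core, levels were unequal, with Gar1 at 3.56 ± 0.435 and the pseudouridine synthase Dkc1 at 2.29 ± 0.246 FPKM beside Nop10 and Nhp2. The PeBoW partners Bop1 and Wdr12 stood at 5.09 ± 0.367 and 1.1 ± 0.0655 FPKM beside Pes1. The order and the gaps depend on the length by which FPKM divides. In vehicle CPM, which is not divided by length, Pes1, Bop1 and Wdr12 stood at 40.1 ± 3.1, 15.9 ± 0.989 and 13.9 ± 0.227. On that scale Ncl (178 ± 6.15) lay above Npm1 (113 ± 11.9).

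**Figure D1:**
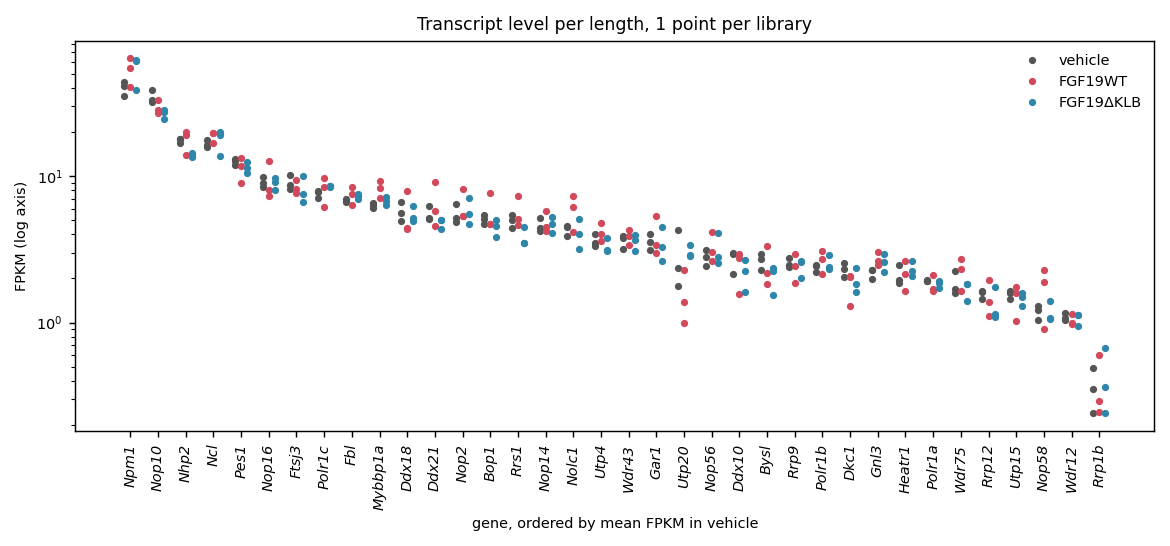
FPKM of each of the 36 genes (log axis), ordered by mean FPKM in vehicle; each point is 1 library and colours mark the 3 groups. Npm1 and Nop10 lie highest and Rrp1b lowest, and the 111-fold range between genes is far wider than the distance between groups within a gene.

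The members varied little. The highest of the 9 libraries was under 2 times the lowest in 32 of 36 members, against 30.8% of the 18142 genes tested, and the median ratio was 1.64 against 3.07. Their median SD of log2 CPM within vehicle was 0.109 against 0.192 over all genes, 0.258 against 0.342 within FGF19WT and 0.12 against 0.215 within FGF19ΔKLB. The median member had 16.5 CPM and the median gene 6.06, and the part of level in that gap was not tested. The 4 members above a ratio of 2 were Utp20 (4.47), a scaffold of the small subunit processome, Rrp1b (3.17), Nop58 (2.16), of the box C/D core, and Ddx10 (2.01), a helicase of 40S assembly.

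**Figure D2:**
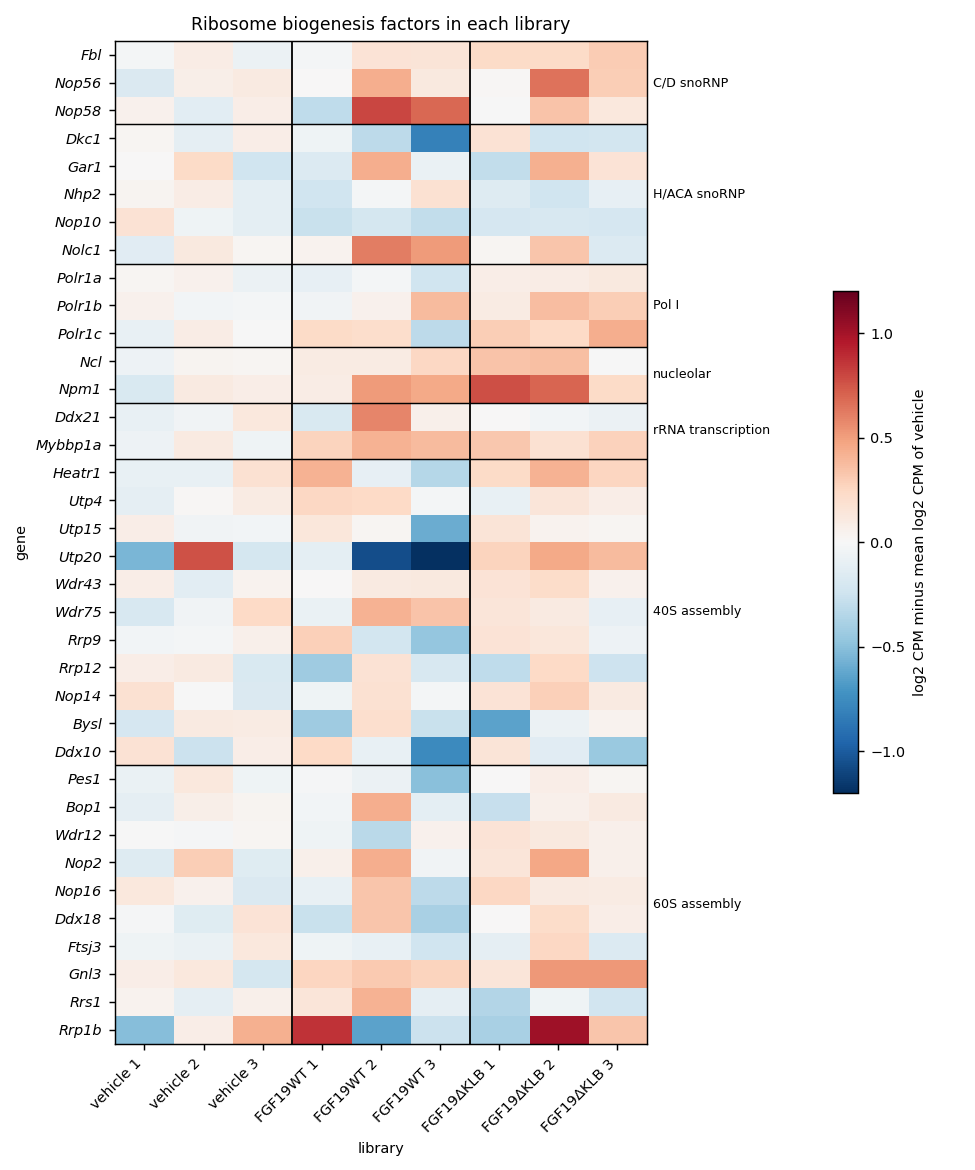
Heat map of log2 CPM minus the vehicle mean for 36 genes (rows, by role) and 9 libraries (columns); red is higher and blue lower than vehicle. Most cells are pale, and strong colours occur in Utp20, Nop58, Npm1, Rrp1b, Dkc1 and Ddx10. The scale uses TMM factors, and on library totals alone the FGF19ΔKLB columns would turn bluer (member median −0.07 in place of 0.11).

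FGF19WT was set against vehicle first, and no member was called: edgeR's quasi-likelihood test with Benjamini-Hochberg adjustment over all 18142 genes found 0 of 36 at an adjusted p under 0.05 over 9 libraries, where 20 genes (0.11%) were called, and 0 of 36 over the 6 libraries of these groups, where 1 gene (0.00574%) was called. An unadjusted p under 0.05 was reached by 1 member, Mybbp1a, against 18.8% of all genes. Of the members 21 had positive and 15 negative changes, with a median log2 fold change of 0.07 beside 0 over all genes. Without FGF19WT 2 and 3 the median was −0.02, beside −0.02 over all genes, with 15 positive and 21 negative, and 12 members had the other sign. The fit bounds the changes: the 95% interval lay within 2-fold in either direction for 33 of 36 members, as for 36.2% of all genes. The members outside were Nop58, Utp20 and Rrp1b. The median size of the change was 0.14 for members and 0.44 for all genes, with median SEs of 0.19 and 0.38. The 3 libraries of each group did not overlap in 4 members (Ncl, Mybbp1a and Gnl3 higher, Nop10 lower), against 22.6% of all genes. On library totals it was 2 members, Mybbp1a and Gnl3, both higher, where 9.02% of all genes were higher and 11.9% lower. DESeq2 called 1 member, Mybbp1a, and 1743 genes (9.61%) over 9 libraries, and 0 members and 1102 genes (6.32%) over 6. The count rested on FGF19WT 1. With that library left out edgeR called 4 of 36 members, beside 5221 of 19025 genes, which is a larger share. These members were Nop58 (log2 0.74, adjusted p = 0.00816 in edgeR), Nolc1 (0.55, 0.0425), Mybbp1a (0.39, 0.0425) and Utp20 (−1.34, 0.0249). The 2 FGF19WT libraries then in the fit are those with low Kupffer cell and high proliferation markers, whose part in these calls was not tested.

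Mybbp1a, a nucleolar MYB-binding protein that takes part in rRNA processing and in the p53 response, had the smallest p. It lies on chromosome 11 from 72441355 to 72451768 (GRCm38). Its level was 37.1, 41.7 and 37.3 CPM in vehicle, 46.4, 51.5 and 50.2 with FGF19WT and 48.4, 44 and 46.9 with FGF19ΔKLB. Every treated library was above every vehicle library on this TMM scale, and on library totals the FGF19ΔKLB libraries overlapped with vehicle. The log2 fold change was 0.35 (SE 0.12, 95% interval 0.08 to 0.62) for FGF19WT, at an adjusted p of 0.175 in edgeR and 0.0256 in DESeq2. For FGF19ΔKLB it was 0.26 (−0.01 to 0.53, adjusted p = 0.608 in edgeR). Between the proteins the difference was −0.09 (−0.36 to 0.18). The gene overlaps Spns2 on the opposite strand, and whether the counting used strand is not given in the sources used here. Spns2 had a log2 change of −0.71 with FGF19WT (adjusted p = 0.476 in edgeR). On library totals without TMM the FGF19WT change of Mybbp1a was 0.4 and the FGF19ΔKLB change 0.09, and with FGF19WT 2 and 3 left out the FGF19WT change was 0.26.

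In the box C/D core, which methylates rRNA, the methyltransferase Fbl (fibrillarin) stood at 29.8, 32.1 and 28.8 CPM in vehicle, 29.8, 33.9 and 33.6 with FGF19WT and 35.5, 35.5 and 37.3 with FGF19ΔKLB. The FGF19ΔKLB libraries lay above all others on this TMM scale but not on library totals, and the FGF19WT libraries overlapped with vehicle. Its changes were 0.1 (−0.16 to 0.36) with FGF19WT, −0.02 without libraries 2 and 3, and 0.26 (−0.01 to 0.52) with FGF19ΔKLB, 0.08 on library totals. The scaffold Nop58 lies on chromosome 1 from 59684971 to 59719044. It was measured at 13.9, 12.3 and 14.2 CPM in vehicle, 10.9, 23.5 and 21.6 with FGF19WT and 13.4, 17 and 14.7 with FGF19ΔKLB. FGF19WT 2 and 3 were above, and FGF19WT 1 below, all other libraries. The log2 change with FGF19WT was 0.47 (−0.13 to 1.08, adjusted p = 0.36 in edgeR), and it was −0.3 with FGF19WT 2 and 3 left out. Its partner Nop56 ranged from 10.7 to 13 CPM in vehicle. The ranges of 12.1 to 16.4 CPM for FGF19WT and 12.2 to 19 CPM for FGF19ΔKLB both overlapped with it, and its FGF19WT change was 0.19, or −0.01 without libraries 2 and 3.

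H/ACA ribonucleoproteins pseudouridylate rRNA, and their core proteins Dkc1, Nhp2, Nop10 and Gar1 also belong to telomerase. Among these proteins and their chaperone, Nop10 was the member whose libraries lay below vehicle in both treated groups. The gene spans 112261926 to 112263269 of chromosome 2. Nop10 levels were 45.4, 38.8 and 37 CPM in vehicle, 33.5, 34.8 and 32.9 with FGF19WT and 34.9, 35.3 and 34.9 with FGF19ΔKLB. All vehicle libraries lay above all treated ones on this TMM scale, and on library totals those of FGF19WT overlapped with vehicle. The log2 changes were −0.26 (−0.53 to 0.01, adjusted p = 0.285 in edgeR) and −0.2 (−0.48 to 0.07, adjusted p = 0.723), and the first was −0.27 without FGF19WT 2 and 3. The snoRNP chaperone Nolc1 stood at 16.5, 19.7 and 18.4 CPM in vehicle, 18.7, 27.7 and 25.9 with FGF19WT and 18.5, 22.8 and 16.2 with FGF19ΔKLB. Like Nop58 it was highest in FGF19WT 2 and 3, with a change of 0.4 (−0.03 to 0.84, adjusted p = 0.297) that was 0.04 without these libraries. Dkc1 was lowest in the same libraries, at 8.07 and 5.69 CPM in FGF19WT 2 and 3 against 8.48 to 11.3 in the other 7 libraries, and its FGF19WT change was −0.36, or −0.06 without them. Gar1 and Nhp2 had FGF19WT changes of 0.08 and −0.02, or −0.17 and −0.25 without libraries 2 and 3, and their FGF19WT and vehicle libraries overlapped.

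Of the RNA polymerase I subunits, the largest, Polr1a, stood at 24.6, 25.1 and 23 CPM in vehicle, 22.6, 23.8 and 20.5 with FGF19WT and 25.6, 25.7 and 26.3 with FGF19ΔKLB. The second-largest subunit Polr1b stood at 15.1, 14.2 and 14.3, at 14.1, 15.1 and 18.9, and at 15.6, 18.8 and 17.8 CPM. Polr1c, shared with RNA polymerase III, stood at 17.2, 19.5 and 18.2, at 21.4, 21.1 and 14.7, and at 22.4, 21.5 and 24.7 CPM. In all 3 the FGF19ΔKLB libraries lay above vehicle on this TMM scale, with log2 changes of 0.09 (−0.17 to 0.36), 0.26 (−0.08 to 0.6) and 0.32 (−0.06 to 0.7), none past the test. On library totals these changes were −0.08, 0.09 and 0.14, so that of Polr1a turned, and of the 3 genes Polr1c alone had groups that stayed apart. With FGF19WT the changes were −0.12, 0.14 and 0.06, and without libraries 2 and 3 they were −0.1, −0.04 and 0.23. The 17 other RNA polymerase I subunits and initiation factors had a median of 0.11 with FGF19WT, which turned to −0.07 without libraries 2 and 3. With FGF19ΔKLB their median was 0.18, which was 0 on library totals. Over 9 libraries edgeR called 0 of them, where it called 0.11% and 0.011% of all genes. The initiation factors Ubtf and Rrn3 had changes of 0.22 and 0.35 with FGF19WT (adjusted p = 0.364 and 0.289 in edgeR) and 0.18 and 0.21 with FGF19ΔKLB (adjusted p = 0.781 and 0.809). In FGF19WT 1 to 3 Ubtf stood at 54.7, 54.6 and 55.9 CPM, above the 45.3 to 49.9 of vehicle, and Rrn3 at 12.8, 19.6 and 16.7, the first within the 12.2 to 13.5 of vehicle.

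FGF19ΔKLB was then set against the same vehicle libraries. No member was called over 9 libraries, where edgeR called 2 genes (0.011%), or over the 6 libraries of these groups, where it called 292 genes (1.68%). At that background a count of 0 among 36 is no result about the members. An unadjusted p under 0.05 was reached by 2 members over 9 libraries (8.35% of all genes) and by 6 over 6 libraries (17.3% of all genes), all with positive changes. The 6 were Npm1, Gnl3, Polr1c, Fbl, Mybbp1a and Heatr1. DESeq2 called 0 members and 370 genes (2.04%) over 9 libraries, and 1 member, Npm1, and 1378 genes (7.95%) over 6. Of the members 26 had positive and 10 negative changes, with a median of 0.11 beside 0 over all genes. That direction turned with the scaling: it was −0.05 on log2(FPKM + 1), where the median of all genes was −0.1, and −0.07 on library totals without TMM, where the median of all genes was −0.17 and 13 members had the other sign. Relative to all genes the member median was 0.11, 0.05 and 0.11 higher in these 3 scalings. The interval lay within 2-fold for 33 of 36 members and 40.9% of all genes.

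With TMM factors the FGF19ΔKLB and vehicle libraries did not overlap in 10 members, against 24.6% of all genes. Of these 9 were higher (Fbl, Polr1a, Polr1b, Polr1c, Npm1, Mybbp1a, Heatr1, Wdr12 and Gnl3) and 1, Nop10, was lower, where all genes were split evenly at 12.4% higher and 12.2% lower. The split did not survive the change of scaling: on library totals 1 member was higher (Polr1c) and 3 lower (Nhp2, Nop10 and Ddx21), with 5.85% and 20.7% of all genes. Beside this stands the share of counts taken by albumin, higher in each FGF19ΔKLB library than in each vehicle library, and a TMM factor of 0.848 in FGF19ΔKLB 3. The part of library composition in these levels was not tested.

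Npm1, on chromosome 11 from 33152287 to 33163206, had the smallest p of the members. Its level was 99.2, 121 and 119 CPM in vehicle, 120, 161 and 154 with FGF19WT and 192, 183 and 132 with FGF19ΔKLB. All 3 FGF19ΔKLB libraries were above vehicle on this TMM scale, the third by the least, and on library totals they overlapped with vehicle. The fold was 1.5 (log2 0.58, SE 0.2, interval 0.12 to 1.04, adjusted p = 0.482 in edgeR over 9 libraries and 0.147 over 6). DESeq2 on the 6 libraries called it, at an adjusted p of 0.0449. On library totals the change was 0.42. With FGF19WT it was 0.36 (−0.09 to 0.82), or 0.09 without libraries 2 and 3. Npm1 is known to have processed pseudogenes, so its count is uncertain where reads could be split between copies. Nucleolin, Ncl, an abundant RNA-binding protein of the nucleolus, stood at 171, 182 and 181 CPM in vehicle, 191, 191 and 211 with FGF19WT and 225, 228 and 177 with FGF19ΔKLB. Its change was 0.15 (−0.21 to 0.51) with FGF19WT, 0.1 without libraries 2 and 3, and 0.24 (−0.12 to 0.6) with FGF19ΔKLB, 0.07 on library totals.

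**Figure D3:**
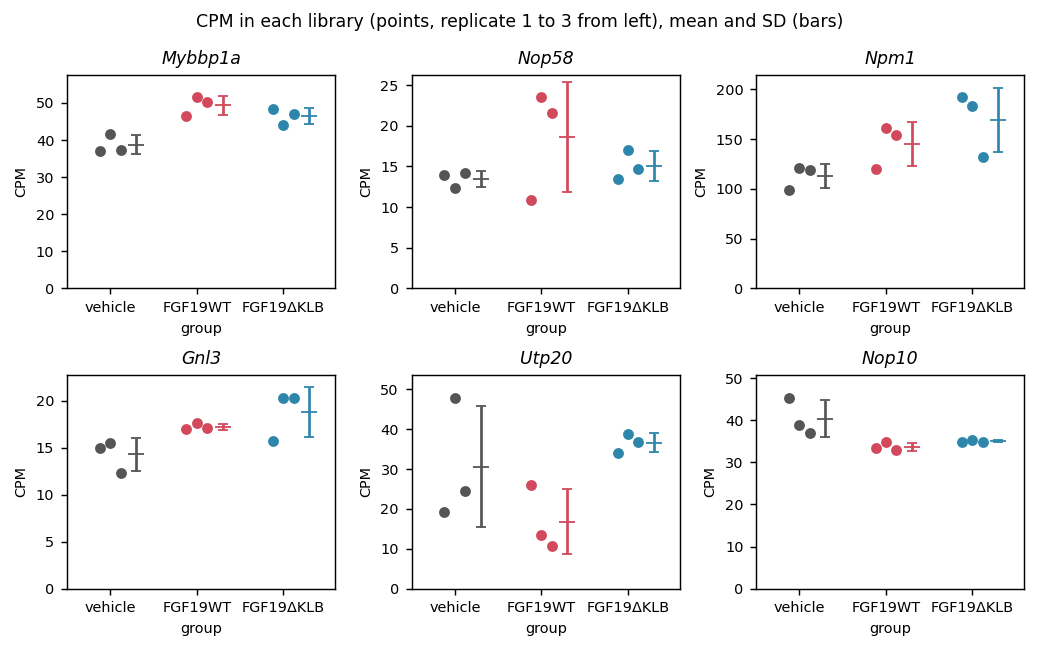
CPM (axis from 0) of 6 members in the 3 groups, with points for single libraries and bars for mean and SD (n = 3). Mybbp1a and Gnl3 lie higher and Nop10 lower in both treated groups on this TMM scale, Nop58 is split within FGF19WT, and Utp20 spreads in vehicle (19.3 to 47.9) and FGF19WT (10.7 to 26.1). On library totals the FGF19ΔKLB points of Mybbp1a and Gnl3, and the FGF19WT points of Nop10, overlap with vehicle.

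Of the 10 factors of 60S assembly, Gnl3 (nucleostemin), a GTPase that shuttles between nucleolus and nucleoplasm, had the smallest p with FGF19ΔKLB. It lies on chromosome 14 from 31012433 to 31019152. Its level was 15, 15.5 and 12.3 CPM in vehicle, 17, 17.6 and 17.1 with FGF19WT and 15.7, 20.3 and 20.3 with FGF19ΔKLB. Both treated groups lay above vehicle on this TMM scale, FGF19ΔKLB 1 only just, and on library totals FGF19ΔKLB overlapped with vehicle. The log2 changes were 0.27 (−0.07 to 0.62, adjusted p = 0.357 in edgeR) and 0.4 (0.05 to 0.74, adjusted p = 0.539). The first was 0.26 without FGF19WT 2 and 3, and the second was 0.22 on library totals, where Rrs1 had −0.38. Pbrm1, the opposite-strand neighbour of Gnl3, had changes of 0.04 and −0.19. The PeBoW complex, which processes the precursor of the 60S rRNAs, had small changes of mixed sign: with FGF19WT they were −0.18 for Pes1, 0.12 for Bop1 and −0.1 for Wdr12, and with FGF19ΔKLB 0.03, −0.03 and 0.12. Without FGF19WT 2 and 3 the former were −0.01, −0.03 and −0.05, and on library totals the latter were −0.14, −0.2 and −0.06. Pes1 stood at 28.3 CPM in FGF19WT 3 and at 38 to 43.7 in the other 8 libraries. The rRNA methyltransferases Nop2 and Ftsj3, the helicase Ddx18, Nop16 and the 5S particle factor Rrs1 had FGF19WT changes between −0.12 and 0.16 and FGF19ΔKLB changes between −0.21 and 0.22. Without FGF19WT 2 and 3 the FGF19WT changes lay between −0.28 and 0.14, and on library totals the FGF19ΔKLB changes lay between −0.38 and 0.06. Rrp1b, the lowest member, had 2.03, 3.06 and 3.88 CPM in vehicle, 5.27, 1.85 and 2.42 with FGF19WT and 2.2, 5.86 and 3.64 with FGF19ΔKLB. The groups overlapped widely and its interval for FGF19ΔKLB ran from −0.75 to 1.52. Its FGF19WT change was 0.09, or 0.82 without libraries 2 and 3.

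The 11 factors of the small subunit processome and 40S assembly held the member with the widest swing. Utp20 spans 88746607 to 88826804 of chromosome 10. Its levels were 19.3, 47.9 and 24.5 CPM in vehicle, 26.1, 13.5 and 10.7 with FGF19WT and 34.1, 38.9 and 36.9 with FGF19ΔKLB. Every FGF19ΔKLB library was above every FGF19WT library, and vehicle 2 was above both groups. The log2 change was −0.86 (−1.78 to 0.05, adjusted p = 0.287 in edgeR) for FGF19WT and 0.26 (−0.65 to 1.17, adjusted p = 0.924) for FGF19ΔKLB. Between FGF19ΔKLB and FGF19WT it was 1.13 (0.21 to 2.05, adjusted p = 0.322). With FGF19WT 2 and 3 left out the FGF19WT change was −0.23 and the difference between the proteins 0.49. Heatr1, a scaffold of the processome, stood at 16.2, 16.2 and 19.6, at 23, 16.1 and 13.6, and at 20.3, 23.1 and 20.7 CPM, with an FGF19ΔKLB change of 0.3 (−0.15 to 0.76), 0.13 on library totals, and an FGF19WT change of 0.02, or 0.41 without libraries 2 and 3. Utp4, Utp15, Wdr43 and Wdr75 are among the t-UTP proteins, which link rRNA transcription to its processing. Their FGF19WT changes were 0.16, −0.12, 0.07 and 0.23 and their FGF19ΔKLB changes 0.05, 0.07, 0.14 and 0.04. Without FGF19WT 2 and 3 the former were 0.25, 0.13, 0 and −0.09, and on library totals the latter were −0.13, −0.1, −0.03 and −0.13. The U3 snoRNP protein Rrp9, the 40S export factor Rrp12, Nop14, Bysl and Ddx10 had FGF19WT changes between −0.16 and 0.03 and FGF19ΔKLB changes between −0.2 and 0.18. Without FGF19WT 2 and 3 the FGF19WT changes ran from −0.43 (Rrp12 and Bysl) to 0.29 (Rrp9), with the other sign for Rrp9, Ddx10 and Nop14. On library totals the FGF19ΔKLB changes ran from −0.38 to 0.01, with the other sign for Rrp9. Ddx21, a helicase that works on rRNA and with RNA polymerase I, was at 45.1 CPM in FGF19WT 2 and at 26.5 to 32.8 in the other 8 libraries, with changes of 0.19, or −0.18 without FGF19WT 2 and 3, and −0.04.

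**Figure D4:**
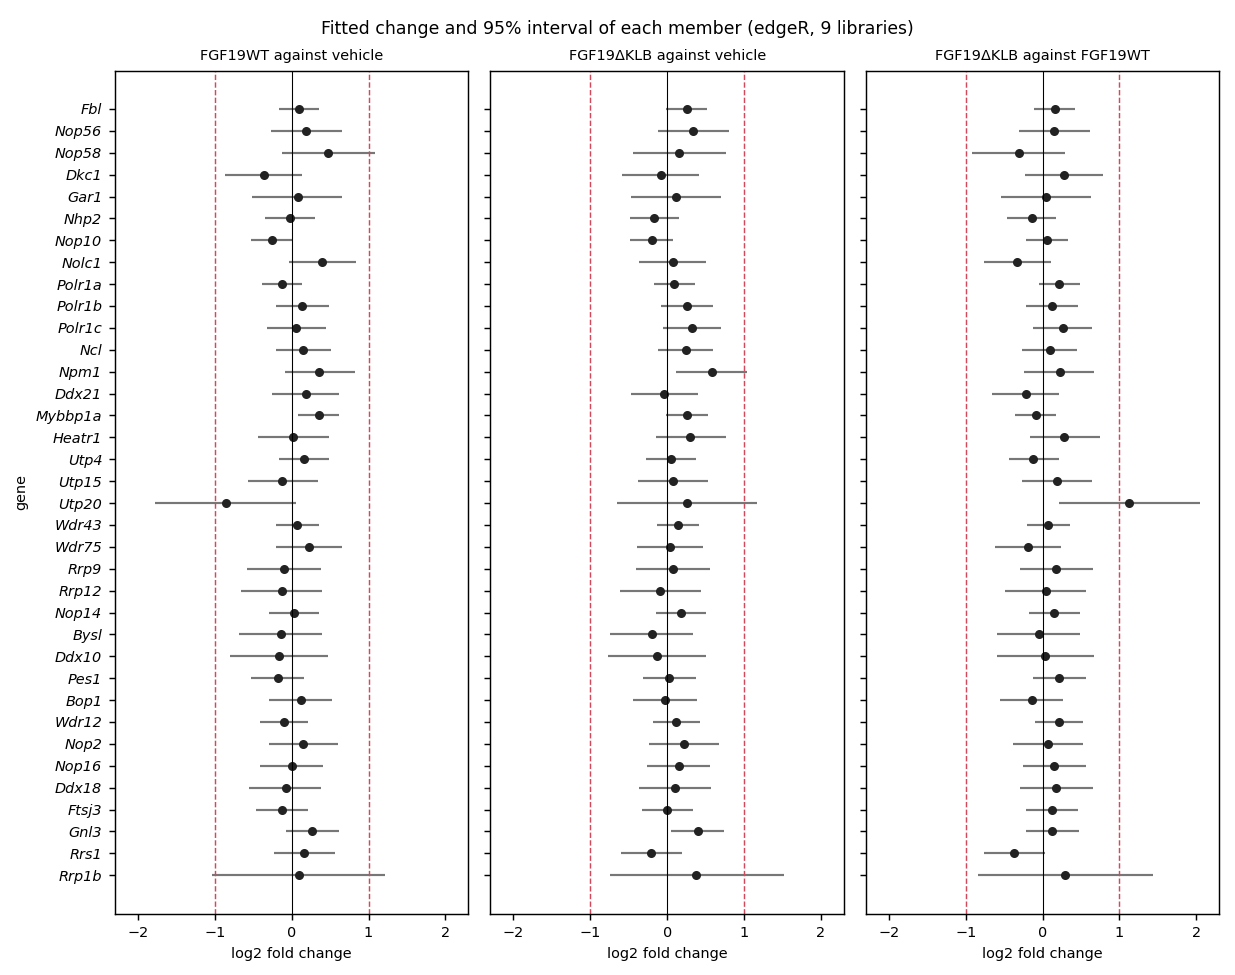
Log2 fold change (points) and 95% interval (lines) of the 36 members by edgeR over 9 libraries, in 3 comparisons; dashed lines mark 2-fold in either direction. The intervals of all but 3, 3 and 2 members lie within the dashed lines, and Mybbp1a, Npm1, Gnl3 and Utp20 are the members whose interval excludes 0 in a comparison. Library totals in place of TMM move both FGF19ΔKLB panels to the left, to all-gene medians of −0.17 and −0.2.

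Set against each other, the 2 proteins differed in no member past the test. Over 9 libraries edgeR called 0 members and 0 genes (0%), with an unadjusted p under 0.05 for 1 member (Utp20) and 12.5% of all genes, and DESeq2 called 0 members and 834 genes (4.6%). With FGF19WT 1 left out edgeR called 3 of 36 members, beside 3846 of 19025 genes, which is a larger share. These members were Utp20 (1.61, adjusted p = 0.0159 in edgeR), Nop58 (−0.58, 0.0287) and Heatr1 (0.54, 0.0446). Over the 6 libraries of these groups edgeR called 0 members and 1 gene (0.00584%). The interval of the difference lay within 2-fold for 34 of 36 members and 38.6% of all genes, the exceptions being Utp20 and Rrp1b. The groups did not overlap in 7 members (Fbl, Nop10, Polr1a, Polr1c, Utp20, Pes1 and Wdr12), all higher with FGF19ΔKLB, against 13.5% of all genes. On library totals 1 was higher (Utp20) and 1 lower (Rrs1), where 3.68% of all genes were higher and 11.9% lower. The median difference was 0.12, beside 0.01 over all genes. It was 0.14 without FGF19WT 2 and 3, where 12 members had the other sign, and it was −0.1 on library totals, where all genes had −0.2. Both comparisons with vehicle use the same control libraries, so members that shift alike in both are not independent of each other.

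The summed level of the 36 members was 864.7, 940.6 and 904.9 CPM in vehicle, 916.8, 1026 and 940.6 with FGF19WT and 1050, 1102 and 955 with FGF19ΔKLB. On this TMM scale the FGF19ΔKLB sums lay above vehicle, while as a share of all counts they were 0.0977%, 0.107% and 0.0809% against 0.0884% to 0.0979%, and overlapped. FGF19WT 2 had 22 members above all vehicle libraries and 8 below, where 36.3% of all genes were above and 38.3% below. FGF19WT 3 had 13 above and 17 below, beside 37.9% and 40.7% of all genes, and FGF19WT 1 had 11 and 10, beside 28.3% and 27.2%. The FGF19ΔKLB libraries 1 to 3 had 15, 23 and 12 members above and 8, 3 and 8 below, where 30.5% to 31.7% of all genes were above and 29.5% to 32.7% below. The proliferation gene Mki67 stood at 27.2 and 37.1 CPM in FGF19WT 2 and 3, and Myc, a known regulator of this machinery, at 7.98 and 15.3 CPM against 1.41 in FGF19WT 1, 3.7 to 4.64 in vehicle and 2.29 to 3.21 with FGF19ΔKLB. Mycn was at 7.71 and 6.17 CPM in FGF19WT 2 and 3 and at 0.384 to 2.08 in the other 7. Their part in the levels of the members was not tested.

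Other assembly factors had medians near those of the members, and ribosomal proteins had higher ones. The 44 other small subunit and 40S factors had medians of 0.01 with FGF19WT and 0.1 with FGF19ΔKLB, and the 45 other 60S factors 0.14 and 0.14. Over 9 libraries 0 genes of either list were called, where 0.11% and 0.011% of all genes were called. On library totals their FGF19ΔKLB medians were −0.07 and −0.03, and without libraries 2 and 3 their FGF19WT medians were 0 and 0.06. With FGF19ΔKLB 1 of the 44 and 0 of the 45 were called over 6 libraries, where 1.68% of all genes were called. At that background these counts are no result about the 2 lists. The gene called was the 18S rRNA methyltransferase Emg1 (adjusted p = 0.0444 in edgeR over 6 libraries and 0.271 over 9). It stood at 37.2 ± 2.69 CPM in vehicle and 55.9 ± 1.09 with FGF19ΔKLB (SD, n = 3) on the TMM scale. The 25 cytosolic ribosomal proteins, the products that these factors assemble, had medians of 0.83 with FGF19WT and 0.66 with FGF19ΔKLB. The treated libraries lay above vehicle in 22 and 24 of the 25, where 11% and 12.4% of all genes did, and on library totals in 17 and 22, where 9.02% and 5.85% did. With FGF19ΔKLB 12 of the 25 rose in the 6-library fit of edgeR, which called 1.68% of all genes. Over 9 libraries 0 of the 25 were called, where 0.011% of all genes were called. Rpl3 rose from 158 ± 6.6 to 278 ± 35.9 CPM with FGF19ΔKLB (adjusted p = 0.0345 over 6 libraries and 0.204 over 9). On library totals the medians of the ribosomal proteins kept their sign, at 0.81 and 0.48. Without FGF19WT 2 and 3 the FGF19WT median was 0.27. In the same FGF19ΔKLB libraries the summed T and NK cell markers were at 1.05 to 2.11 CPM against 5.71 to 13.3 in vehicle, with Cd8a called lower over 6 libraries (adjusted p = 0.0187 in edgeR). Sums of sinusoidal endothelial (50 to 77.1 against 92.8 to 107), stellate cell (88.2 to 173 against 222 to 261) and pericentral markers (1770 to 3260 against 4320 to 7310) were lower in each library. In vehicle Dcn, at 156 to 186 CPM, made up most of the stellate cell sum. Of the 5 stellate cell markers 3 lay below vehicle in each FGF19ΔKLB library. Reln overlapped with vehicle (31.3 to 46.1 against 36.2 to 44.6 CPM). Col1a1 lay above vehicle in FGF19ΔKLB 2 and 3 (9.76 and 11.6 against 5.43 to 8.64 CPM) and below it in FGF19ΔKLB 1 (1.99). The sum of the 8 proliferation markers was 39.1 to 48.8 against 34.2 to 35.5 on this TMM scale. Pcna, at 26 to 26.8 CPM in vehicle and 23.1 to 27.8 with FGF19ΔKLB, made up most of it. Of the 8 only 1, Mki67, lay above vehicle in every FGF19ΔKLB library. In FGF19ΔKLB 1 Top2a, Cdk1 and Ccnb1 lay below all vehicle libraries. The part of these markers in the levels of the ribosomal proteins, and the difference between the lists, were not tested.

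The 9 measured snoRNA host genes, noncoding RNAs whose introns carry snoRNAs, had medians of 0.42 and 0.51. With FGF19WT the median was 0.05 once libraries 2 and 3 were left out. Over 9 libraries edgeR called 0 of them, where it called 0.11% and 0.011% of all genes, so that count is no result about the list. Snhg1 stood at 12.1 ± 2.66 CPM in vehicle, 18.2 ± 1.79 with FGF19WT and 18.6 ± 1.32 with FGF19ΔKLB (adjusted p = 0.154 and 0.405 in edgeR), with FGF19WT 1 at 16.2. The 12 exosome genes, whose products trim rRNA, had medians of 0.12 and 0.14, and the 10 tested genes of RNase P and MRP 0.04 and 0.16. Genes of mitochondrial ribosomes, 16 in number, had medians of 0 and 0.07. On library totals the FGF19ΔKLB medians of these 3 lists turned to −0.04, −0.03 and −0.1, and without libraries 2 and 3 the FGF19WT medians were 0.01, 0.01 and 0.04. That of the snoRNA host genes with FGF19ΔKLB was 0.34 on library totals. The 12 p53 targets, which respond when free ribosomal proteins bind MDM2, had medians of 0.71 and 0.48, and −0.1 with FGF19WT without libraries 2 and 3. Of these too edgeR called 0 over 9 libraries, at the same shares of all genes. On library totals the FGF19ΔKLB median was 0.22. Cdkn1a was at 54 and 34.8 CPM in FGF19WT 2 and 3, 6.53 in FGF19WT 1, 15 to 28.7 in vehicle and 10.8 to 41.7 with FGF19ΔKLB. Mdm2 was at 38.8 and 42.4 CPM in FGF19WT 2 and 3 and at 17.7 to 29.6 in the other 7. Of the 19 snoRNA genes inside 6 members, 17 were in the table, with at most 10 counts in any library, so these libraries say nothing of mature snoRNAs.

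**Figure D5:**
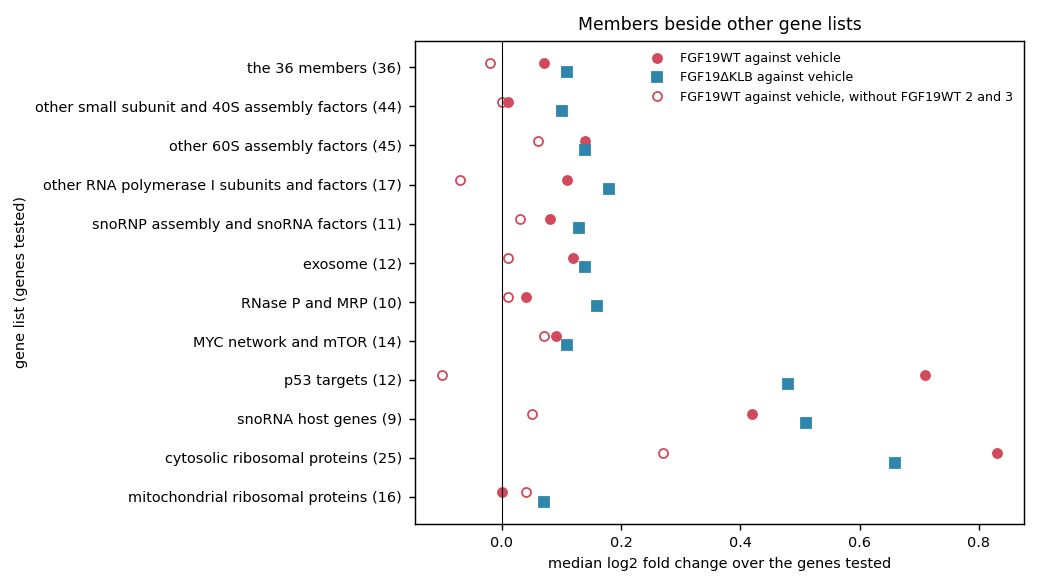
Median log2 fold change over the tested genes of each list (number in brackets) for FGF19WT (filled circles) and FGF19ΔKLB (squares) against vehicle, and for FGF19WT without libraries 2 and 3 (open circles). The 36 members and the other assembly lists lie between −0.1 and 0.2, with the circles and squares of p53 targets, snoRNA host genes and ribosomal proteins to their right when all libraries are used; on library totals the FGF19ΔKLB median of the members turns to −0.07 and that of the ribosomal proteins is 0.48.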

How the data were processed

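Liver RNA of 9 libraries in 3 groups was analysed. The authors deposited estimated counts (expected counts) and FPKM for each gene in each library. The submitters' processing notes name Bowtie 0.12.2, HISAT2 2.0, StringTie 1.3.0 and build mm8; what each tool did is not given in the sources used here. Identifiers and starts of all 28517 genes are those of GENCODE M21 (GRCm38), so coordinates are given on that build. Expected counts were rounded and fitted with edgeR 4.0.16 in R 4.3.3 (filterByExpr, TMM, robust quasi-likelihood, group only, 18142 genes), with a call at a Benjamini-Hochberg adjusted p under 0.05 over all genes. CPM values use TMM factors, and intervals are 95% intervals of the fit. The same model was fitted to the 6 libraries of each pair of groups. Alternatives were DESeq2 1.42.0, limma 3.58.1 on log2(FPKM + 1) and log2(FPKM + 0.1) for genes with a mean of at least 1 FPKM, other filters and scalings, a replicate block and leaving out libraries. Scripts were tested on simulated data. Of the genes outside the 36, those named are growth and p53 genes of a fixed list, markers, and the 2 with the smallest p of each list. Spns2 and Pbrm1 are named as opposite-strand neighbours of members. Promoters shown are the 4 members with the highest mean FPKM that hold an E-box. The members, gene lists and markers were chosen with earlier results of these data known. Same-numbered libraries did not deviate together (1 of 9 pairs had a correlation over 0.1), so the numbers were not taken as pairs.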

Additional observations from a re-analysis of the deposited data

How the results depend on the processing

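The median over members for FGF19ΔKLB against vehicle was −0.05 on log2(FPKM + 1), −0.06 on log2(FPKM + 0.1) and −0.07 on library totals, a setting chosen after seeing the data, and for FGF19ΔKLB against FGF19WT it was −0.06, −0.07 and −0.1; the median of all genes was lower still in each. DESeq2 called 1 member for FGF19WT (Mybbp1a) and, over 6 libraries, 1 for FGF19ΔKLB (Npm1). Leaving out 1 library in turn gave 0 to 4 members called for FGF19WT, 0 to 0 for FGF19ΔKLB and 0 to 3 between the variants, and 0 to 2, 0 to 0 and 0 to 1 in the 6-library fits. The calls came without FGF19WT 1. For the 6-library fits the share of all genes called was not computed there, so their counts are no result about the members. In the fits over all groups 5221 of 19025 genes were called for FGF19WT and 3846 of 19025 between the variants, larger shares than of the members. The members were Nop58 (0.74, adjusted p = 0.00816 in edgeR), Nolc1 (0.55), Mybbp1a (0.39) and Utp20 (−1.34) against vehicle. Between the variants they were Nop58, Heatr1 and Utp20 (1.61). The medians ranged from −0.02 to 0.09, 0.06 to 0.15 and 0.04 to 0.16. With a replicate block 0 members were called in each comparison, the medians were 0.05, 0.1 and 0.12, and 1, 0 and 0 genes were called; 4 of 9 libraries correlated best with their own number. Filters at 5 CPM or 1 FPKM left 35 members, without Rrp1b. Over single members, 1967 values kept direction and call, 176 uncalled ones changed sign and 8 gained a call.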
